A study of Homo sapiens with 2 samples.

Results

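NRF2, the product of NFE2L2, is a transcription factor that switches on genes for antioxidant defence, glutathione synthesis and detoxification. The 9 genes described here are NFE2L2, its inhibitor KEAP1, and the target genes HMOX1, NQO1, GCLC, GCLM, TXNRD1, SRXN1 and OSGIN1. They were taken by gene symbol from a table of 46427 genes, and each symbol matched 1 gene. Messenger RNA was measured by sequencing total RNA of a cell line labelled MiaPaca2 (pancreatic adenocarcinoma), which received vehicle or iMQT_020 for 48 hours. By the series text, iMQT_020 inhibits the mitochondrial glutamine transporter. There was 1 library of each kind, with 67095283 estimated counts (vehicle) and 59139157 (iMQT_020). The labels give no dose and no genetic change in either group. No difference below has a replicate check, since each treatment has 1 library, and iMQT_020 itself cannot be told apart from anything else in which the 2 cultures or library preparations differed. In a bulk sample, fewer expressing cells and less RNA per cell also cannot be told apart.

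KEAP1 is the adaptor that presents NRF2 to a cullin-RING ubiquitin ligase, and reactive compounds that modify KEAP1 cysteines let NRF2 escape breakdown. NRF2 then enters the nucleus, pairs with a small MAF protein and binds antioxidant response elements, where BACH1 competes with it. Because this control acts mainly on the NRF2 protein, its activity is usually read from its target genes rather than from its own mRNA. Glutamine feeds this system too, since glutamate, made from it, is joined to cysteine in the first step of glutathione synthesis.

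The cells were checked against markers of the label. Of 8 markers of pancreatic carcinoma epithelium, KRT8 and KRT18 were above 1 TPM in both libraries and KRT7 and KRT19 were at 0 counts in both. The other 4 were at 1.26 TPM or less. The level of CD44, an abundant gene of MIA PaCa-2, was only 0.0964 TPM (vehicle) and 0.0209 TPM (iMQT_020). A gene that this line lacks, CDKN2A, stood at 278 and 208 TPM. Of the other markers fixed for the line, VIM stood at 403 and 438 TPM, ANXA1 was low with 3.13 and 2.74 TPM, and CDKN2B and MTAP, lost with CDKN2A, were at 8.04 and 13.5 TPM and at 33.7 and 26.2 TPM. Most markers of the line thus go against the label, namely CD44 and the 3 lost genes, and ANXA1 was low. Only VIM was as the label would have it. The cells are therefore named here only as labelled, and their identity was not tested further. Leukocyte, endothelial and fibroblast markers summed to at most 1.44, 0.272 and 16.5 TPM, with the fibroblast sum carried by COL1A1. Their part in the results was not tested.

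The core of the antioxidant response element, TGACNNNGC on either strand, was looked for in the 250 bases before each RefSeq gene start, because these genes are known for that element. RefSeq promoter entries (GRCh38.p14) matched 8 of the 9 genes, with 11 windows, and the gene with no entry was HMOX1. The core was found in 3 of these 8 genes (GCLM, KEAP1 and TXNRD1). Of all 27305 genes with a promoter entry, 13.2% held it, and of those measured here 15.8%. Among the other pathway genes listed below, 21 of 94 with an entry held it. By window it was 4 of the 11, beside 10.9% of all 35116 windows. The sites are printed 5′ to 3′ on the strand of the gene, with the matched letters in capitals.
GCLM, chr1:93909446-93909474, minus strand, match starting 34 bases before the start: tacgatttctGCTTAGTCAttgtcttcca
TXNRD1, chr12:104215670-104215698, plus strand, first start, match 99 bases before it: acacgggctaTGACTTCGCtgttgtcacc
TXNRD1, chr12:104286920-104286948, plus strand, second start, match 102 bases before it: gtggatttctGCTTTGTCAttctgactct
KEAP1, chr19:10502807-10502835, minus strand, second start (10502771, inside the gene), match 54 bases before it: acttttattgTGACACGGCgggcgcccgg
KEAP1, chr19:10502784-10502812, minus strand, second start, match 31 bases before it: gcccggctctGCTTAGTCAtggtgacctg
The window before the first start of KEAP1 held no core. The second start of TXNRD1 (104287032), like that of KEAP1, lies inside the gene. By GENCODE exons, all 250 bases of that TXNRD1 window and 125 of the KEAP1 window with the core are exon sequence. For the window of GCLM it was 26 bases, and for the first of TXNRD1 0. The GCLM site and the second KEAP1 site share the same 9 matched letters, which are the core read on the opposite strand.

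A pair of whole windows is shown for genes without the core in these 250 bases. Sequence farther from the starts was not searched, so a gene with no match here may hold the element elsewhere. GCLC is shown because its ratio was close to that of its partner GCLM, whose window holds the core. OSGIN1 is shown because it had the highest ratio of the 9 genes, and the capitals in it mark an AP-1 element (TGAGTCA, searched on either strand, here read on the opposite strand). Of all genes with an entry, 5.19% held that AP-1 element. The 2 motifs overlap where TGACTCA, the AP-1 element on its other strand, is followed by GC, and the TGACTCA of OSGIN1 is followed by CG.
GCLC, chr6:53545102-53545351, minus strand: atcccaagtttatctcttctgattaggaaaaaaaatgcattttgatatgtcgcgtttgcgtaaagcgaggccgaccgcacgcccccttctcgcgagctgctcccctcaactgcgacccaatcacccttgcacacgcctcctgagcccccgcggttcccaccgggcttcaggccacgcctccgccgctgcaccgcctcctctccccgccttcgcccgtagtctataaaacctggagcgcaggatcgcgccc
OSGIN1, chr16:83952990-83953239, plus strand: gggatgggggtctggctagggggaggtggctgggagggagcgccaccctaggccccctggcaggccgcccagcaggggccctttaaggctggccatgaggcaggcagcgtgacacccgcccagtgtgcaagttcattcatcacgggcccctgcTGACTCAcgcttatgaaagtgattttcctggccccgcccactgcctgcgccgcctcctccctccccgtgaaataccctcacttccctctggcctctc
A match of letters is a description and not a measured binding site. The 1783 measured genes that held the core had a median log2 ratio of -0.02, iMQT_020 over vehicle, and the 9512 without it had -0.01. At least 2-fold apart were 4.15% of the former and 4.49% of the latter.

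Across the 9 genes, HMOX1 was 2.21-fold lower in the iMQT_020 library and OSGIN1 was 2.38-fold higher, while the other 7 lay within 2-fold. Of those 7, NFE2L2 had the largest difference, 1.44-fold higher. GCLC, GCLM, TXNRD1 and SRXN1 were 1.15-fold to 1.22-fold higher, KEAP1 was 1.12-fold higher and NQO1 1.07-fold lower. The ratio is that of counts scaled to library size (counts per 1000000, CPM) after TMM scaling, iMQT_020 over vehicle, for genes that reached 50 counts in either library. Of the 14805 genes measured this way, 5.23% were at least 2-fold apart, 2.15% higher and 3.09% lower, beside 2 of the 9 genes. A log2 ratio above 0 was found for 7 of the 9 genes and for 47.3% of all measured genes. The median log2 ratio was 0.22 over the 9 genes and -0.02 over all measured genes. OSGIN1 passed the minimum of 50 only in the iMQT_020 library, where it was higher. The other 8 passed it in both libraries, and 1 of them, HMOX1, was 2-fold apart, beside 2.91% of all genes that passed in both. Intervals given below are exact 95% Clopper-Pearson intervals that cover counting error only.

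**Figure D1:**
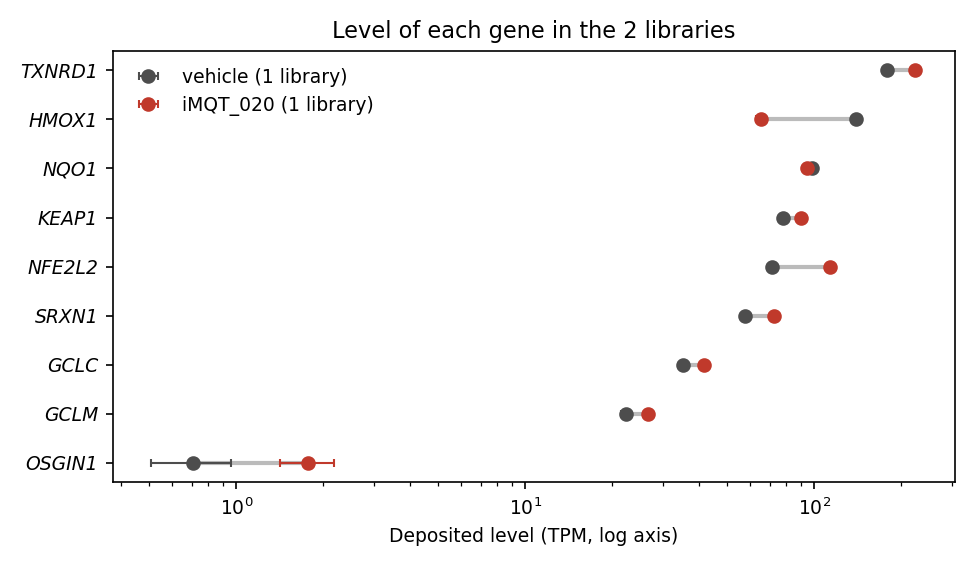
Deposited level of each of the 9 genes in TPM (log axis) in the vehicle library (grey) and the iMQT_020 library (red), 1 library each. Bars are 95% intervals for counting error only and are mostly hidden by the points. HMOX1 moves from 139 to 65.2 TPM and NFE2L2 from 71.0 to 113 TPM.

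Levels per transcript length, in TPM, put TXNRD1 first in both libraries, GCLC and GCLM near the end and OSGIN1 last. In the vehicle library the order was TXNRD1, HMOX1, NQO1, KEAP1, NFE2L2, SRXN1, GCLC, GCLM and OSGIN1. In the iMQT_020 library NFE2L2 stood directly after TXNRD1, and HMOX1 stood between SRXN1 and GCLC. No spread between replicates exists to compare neighbours in this order. By counting error alone, NQO1 at 94.2 TPM (from 91.9) and KEAP1 at 89.8 TPM (to 92.1) overlapped in the iMQT_020 library, and no other neighbours overlapped in either library.

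NFE2L2 (chromosome 2, 177230303 to 177264727, GRCh38), the gene for NRF2 itself, had 5669 counts with vehicle and 7232 with iMQT_020. Its deposited level was 71.0 TPM and 113 TPM, and 29.2 and 45.1 FPKM. It was therefore higher in the iMQT_020 library on all 3 scales. In CPM the log2 ratio was 0.53 (0.48 to 0.58). Of 3949 measured genes with a mean CPM within 2-fold of its own, 3.75% had a higher ratio. Its ratio in TPM was 0.67 on the log2 scale, 0.14 above that of the counts. For the other 8 genes this gap was 0.03 to 0.06, and over all measured genes its median was 0.05 and its central 95% ran from -0.11 to 0.20. Counts sum the transcripts of a gene and TPM divides by transcript length. Isoforms were not separated.

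KEAP1 (chromosome 19, 10486125 to 10503356) had 5907 and 5846 counts, nearly equal before scaling to the smaller total of the iMQT_020 library. That is 77.8 and 89.8 TPM. Its log2 ratio of CPM was 0.16 (0.11 to 0.21), and 30.7% of all measured genes had a higher one. NFE2L2 over KEAP1, a ratio within each library that no scaling of libraries can change, was 0.914 in TPM with vehicle and 1.26 with iMQT_020. In counts the ratio was 1.29-fold larger with iMQT_020, a log2 difference of 0.37 (0.29 to 0.44). That interval covers counting error only and not the sequence of the transcripts. Centred on the GC content and length of transcripts, NFE2L2 was at 0.50 and KEAP1 at 0.34, closer together than in counts. NFE2L2 was thus the less abundant of the pair in the vehicle library and the more abundant one in the iMQT_020 library.

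HMOX1 (chromosome 22, 35381096 to 35394207) encodes heme oxygenase 1, the inducible enzyme that breaks heme down to biliverdin, iron and carbon monoxide, and it is repressed by BACH1. It had 6457 counts with vehicle and 2587 with iMQT_020. Its level was 139 and 65.2 TPM, and 57.3 and 26.0 FPKM. This gives a log2 ratio of CPM of -1.14 (-1.21 to -1.08), and -1.10 with TPM. Of 4893 measured genes of like abundance, 0.245% had a lower ratio. A 2-fold lower level was found for 0.956% of the 9312 genes that reached 1000 counts in either library. Centred on the GC content and length of transcripts, its log2 ratio was -0.91, within 2-fold.

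HMOX2, the constitutive heme oxygenase, was included for comparison and had 3449 and 2733 counts, a log2 ratio of -0.16 (-0.23 to -0.09). After the same centring HMOX2 was at 0.08, so its direction depends on the measure. HMOX1 was 2.07 times as abundant as HMOX2 in TPM with vehicle and 1.06 times with iMQT_020. The log2 difference of this ratio in counts was -0.98 (-1.08 to -0.89). HMOX1 over NQO1, a pair of target genes, was 1.42 in TPM with vehicle and 0.692 with iMQT_020. The order of these 2 target genes was thus opposite in the 2 libraries.

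NQO1 (chromosome 16, 69709401 to 69726560) encodes a quinone reductase and is widely used as a readout of NRF2. It had 7321 and 6033 counts, 97.9 and 94.2 TPM. The log2 ratio of CPM was -0.10 (-0.15 to -0.05), and 41.2% of all measured genes had a lower one. NQO1 thus lay close to the middle of all genes.

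GCLC (chromosome 6, 53497341 to 53545101) and GCLM (chromosome 1, 93885199 to 93909430) encode the catalytic and modifier subunits of glutamate-cysteine ligase, the rate-limiting enzyme of glutathione synthesis. GCLC had 3939 and 3997 counts, 35.1 and 41.6 TPM, and a log2 ratio of 0.20 (0.13 to 0.26). GCLM had 3375 and 3482 counts, 22.2 and 26.5 TPM, and a log2 ratio of 0.22 (0.15 to 0.29). The subunits were higher by similar amounts in the iMQT_020 library. Their ratio in TPM, GCLC over GCLM, was 1.58 with vehicle and 1.57 with iMQT_020, a log2 difference in counts of -0.02 (-0.12 to 0.07). Centred on GC content and length, GCLC was at 0.19 and GCLM at 0.03, so GCLM lay close to the median of genes of like sequence.

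TXNRD1 (chromosome 12, 104215779 to 104350307), the cytosolic thioredoxin reductase, had 19271 and 20659 counts, the most of the 9 genes. Its level was 178 and 222 TPM, and its log2 ratio of CPM was 0.28 (0.25 to 0.30). SRXN1 (chromosome 20, 646615 to 653200), which encodes the sulfiredoxin that repairs overoxidized peroxiredoxins, had 4326 and 4680 counts, 57.4 and 72.5 TPM. Its log2 ratio was 0.29 (0.23 to 0.35). Of all measured genes, 20.5% had a higher ratio than TXNRD1 and 19.5% a higher one than SRXN1. TXNRD1 over SRXN1 stood at 3.10 in TPM with vehicle and 3.07 with iMQT_020, with a log2 difference in counts of -0.01 (-0.08 to 0.05). Both are spanned in part by other gene models, RPL18AP3 (885 and 640 counts) and EID3 in TXNRD1 and LOC107985423 (105 and 129 counts) in SRXN1, whose reads may not be fully separated.

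OSGIN1 (chromosome 16, 83953240 to 83966332) encodes an oxidative stress-induced growth inhibitor and was the least abundant of the 9 genes. It had 41 counts with vehicle and 87 with iMQT_020, 0.705 and 1.77 TPM. The log2 ratio was 1.25, with a wide counting interval of 0.71 to 1.83 that reached below 2-fold. Of 1879 measured genes of like abundance, 7.45% had a higher ratio. With 1 added to TPM before the logarithm it was 0.70, and with 1 added to FPKM 0.40. OSGIN1 overlaps NECAB2 at its 3′ end, and NECAB2 had 331 counts with vehicle and 104 with iMQT_020, the opposite direction. How reads of the shared stretch were divided was not tested.

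**Figure D2:**
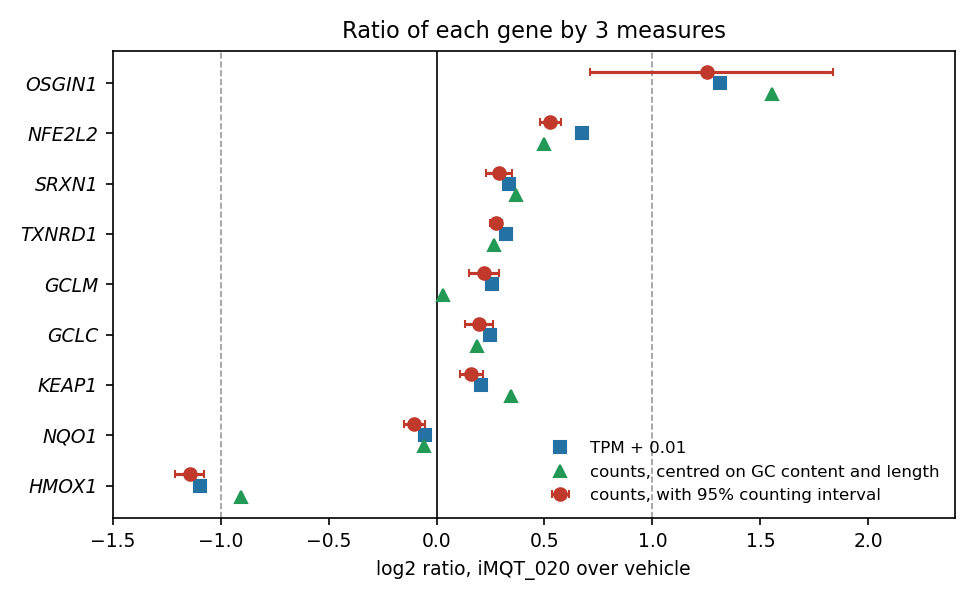
The log2 ratio of each gene, iMQT_020 over vehicle, from counts with its 95% counting interval (red), from TPM with 0.01 added (blue) and from counts centred on GC content and transcript length (green). Dashed lines mark 2-fold. HMOX1 is at -1.14 from counts and at -0.91 after centring, and GCLM at 0.22 and 0.03.

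With 2 libraries each gene has 1 ratio, so no gene can be named for a pattern like that of another across samples. Each ratio was instead set against all measured genes by abundance. HMOX1 lay at the lower edge of genes at its abundance. OSGIN1 lay in the wide scatter of genes with few counts.

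**Figure D3:**
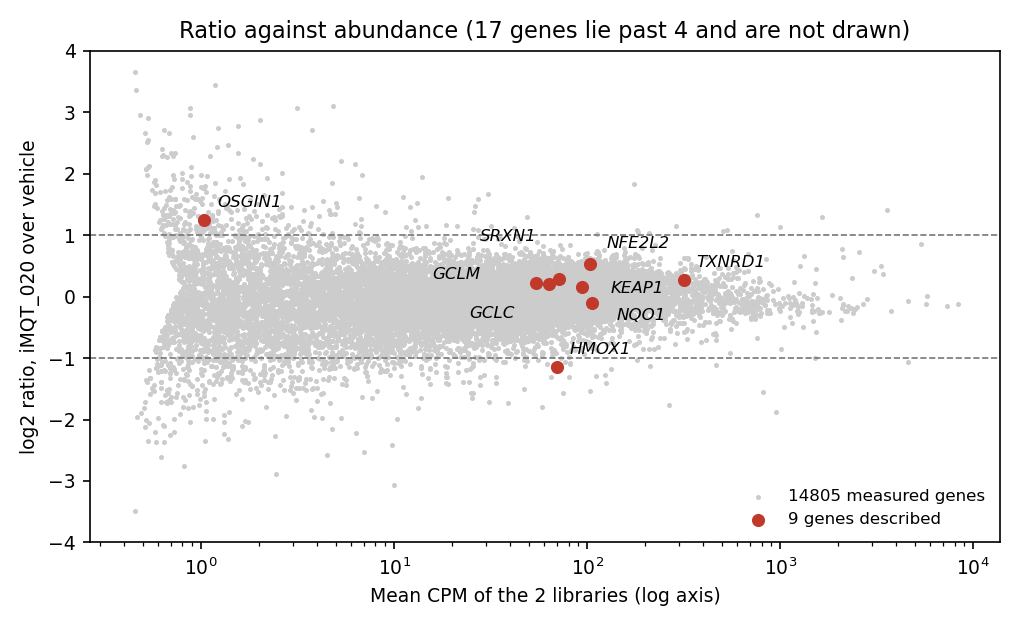
The log2 ratio (iMQT_020 over vehicle) against the mean CPM of both libraries (log axis) for the 14805 measured genes (grey), with the 9 genes in red and dashed lines at 2-fold. The 17 genes past 4 in either direction are not drawn. HMOX1 lies below nearly all genes of its abundance, and OSGIN1 among genes with few counts.

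The ratio of all genes varied with transcript sequence. Genes were split into 10 bins by GC content, and their median log2 ratio was 0.13 in the bin of least GC and -0.31 in that of most GC. Across 10 bins by length it was -0.20 for the shortest and 0.18 for the longest transcripts. KEAP1, at 60.2% GC, and OSGIN1, at 64.7%, were above the median of their bins, and centring moved them up to 0.34 and 1.55. HMOX1, at 57.7% GC and a length of 1554 bases, moved toward 0. NFE2L2, TXNRD1 and SRXN1 had centred log2 ratios of 0.50, 0.27 and 0.37, and NQO1 -0.06. None of the 9 genes changed sign. What part of the differences comes with sequence composition was not tested beyond this centring.

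**Figure D4:**
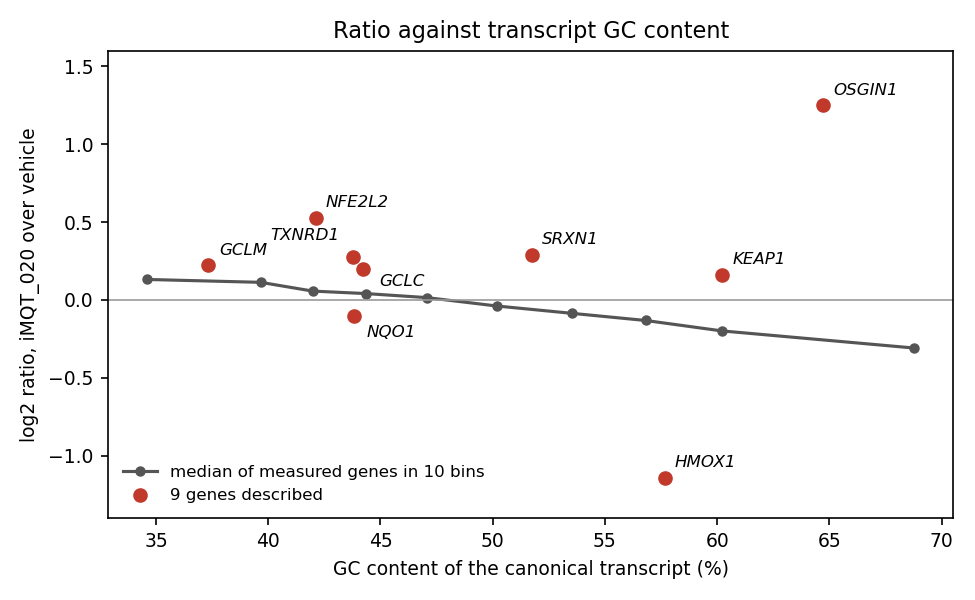
The log2 ratio of each gene (iMQT_020 over vehicle) against the GC content of its canonical transcript in percent, with the median of measured genes in 10 GC bins (grey line, at the middle of each bin). The line falls from 0.13 to -0.31. NFE2L2, KEAP1, GCLC, GCLM, TXNRD1, SRXN1 and OSGIN1 lie above it, NQO1 lies below it and HMOX1 far below.

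The other genes of the pathway were read in 7 lists by role, 119 genes in all without the 9 above, of which 110 were measured. At least 2-fold higher were 3 of the 110 and at least 2-fold lower were another 3, beside 2.15% and 3.09% of all measured genes. Their median log2 ratio was -0.20, with 83 of 110 below 0, beside 52.7% of all measured genes. Centred on GC content and length the median was -0.06. The 9 genes, with 7 of 9 above 0, thus had a median of the opposite sign to most lists of the wider pathway, a description with no test. The counts of each list below stand beside the same shares of all measured genes, 52.7% below 0 and 5.23% at least 2-fold apart. In lists this small, no gene 2-fold apart is close to that share. NRF2's partners and the other detoxification targets each had 3 of 18 measured genes 2-fold apart, a larger share that was not tested.

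The list of NRF2's partners, competitors and degraders was the 1 list of the 7 with a median above 0. All 18 genes were measured, 12 were above 0 and the median was 0.29, and 0.22 after centring. CREBBP and EP300, acetyltransferase coactivators that bind NRF2, were at least 2-fold higher. CREBBP had 7808 and 14647 counts, a log2 ratio of 1.08 (1.04 to 1.12), and EP300 had 9212 and 16728, a log2 ratio of 1.04 with an interval that starts at 2-fold and ends at 1.07. EP300 was at 0.89 after centring. MAFF, a small MAF partner, was at least 2-fold lower with few counts, 64 and 17, a log2 ratio of -1.71 (-2.60 to -0.95), and passed the minimum of 50 only in the vehicle library. The more abundant small MAF genes MAFG and MAFK were at 0.29 and -0.05.

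Several further genes of this list act directly on NRF2 or HMOX1. BACH1, the repressor of HMOX1, had 2391 and 2856 counts, 14.4 and 20.2 TPM, a log2 ratio of 0.43 (0.35 to 0.51). CUL3, the cullin that KEAP1 recruits, was at 0.36, while RBX1, the RING subunit of the same ligase, was at -0.37. SQSTM1, which can sequester KEAP1 and is itself an NRF2 target, was at 0.29. GSK3B, a kinase that marks NRF2 for breakdown through the adaptor BTRC, was at 0.59, and BTRC at 0.33. The related factors NFE2L1 and NFE2L3 were at 0.29 and -0.63. Centred on GC content and length, BACH1 was at 0.24, CUL3 at 0.17, RBX1 at -0.27 and SQSTM1 at 0.36. GSK3B was then at 0.38, BTRC at 0.19, NFE2L1 at 0.31 and NFE2L3 at -0.66. These genes, from BACH1 on, were chosen for their roles after their values were seen.

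Of 16 genes of heme synthesis, export and breakdown, 15 were below 0 and none was 2-fold apart, with a median of -0.23, and -0.20 after centring. ABCB6, a porphyrin transporter, had 1589 and 791 counts and a log2 ratio of -0.83 (-0.95 to -0.71). PPOX, protoporphyrinogen oxidase, was at -0.73, and ABCG2, an exporter that accepts porphyrins, at -0.64 with 175 and 99 counts. The 1 gene above 0 was ALAS1, the first enzyme of heme synthesis, at 0.13. BLVRA and BLVRB, which reduce biliverdin, the product of heme oxygenase, were at -0.10 and -0.48. ALAS1, BLVRA and BLVRB were chosen after their values were seen.

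Among 13 measured genes of glutathione synthesis, cystine supply and turnover, of 15 listed, 10 were below 0 and none was 2-fold apart, with a median of -0.21, and -0.07 after centring. CBS, which makes cystathionine on the route from homocysteine to cysteine, had 9725 and 4697 counts, 107 and 60.2 TPM, a log2 ratio of -0.87 (-0.92 to -0.82). GGT1 and GGT7, of the family that cleaves glutathione outside the cell, were at -0.76 and -0.50. GGT1 has close copies whose reads may be shared. Chosen after their values were seen, SLC7A11, the cystine importer and an NRF2 target, was at -0.26 (-0.34 to -0.18) and GSS, which completes glutathione, at -0.20. GSR, glutathione reductase, was at -0.08. After centring SLC7A11 was at -0.42 and GSS at -0.0015, beside 0.19 for GCLC and 0.03 for GCLM.

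Glutathione peroxidases, transferases and glutaredoxins were measured for 22 of 27 genes, with 19 below 0, none 2-fold apart and a median of -0.27, and -0.10 after centring. The transferases GSTM1, GSTA4 and GSTM2 had the largest ratios, at -0.74, -0.71 and -0.66. GSTM genes are close paralogs, so their reads are hard to separate. In the list of thioredoxin, peroxiredoxin, catalase and superoxide dismutase genes, 11 of 14 were below 0 and none was 2-fold apart, with a median of -0.13, and -0.03 after centring. The peroxiredoxins PRDX2, PRDX4 and PRDX5 were at -0.40, -0.37 and -0.34, and after centring at -0.19, -0.19 and -0.05. TXNRD2 and TXNRD3, the paralogs of TXNRD1, were at 0.07 and 0.06.

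All 9 NADPH-supplying enzymes were below 0, none of them 2-fold apart, with a median of -0.27, and -0.22 after centring. ME1, malic enzyme 1, was at -0.34 and MTHFD1, a folate enzyme, at -0.33. Other detoxification targets of NRF2 were measured for 18 of 20 genes, with 13 below 0 and a median of -0.21, and -0.05 after centring. ABCC2, an exporter of glutathione conjugates, was at least 2-fold higher with 108 and 201 counts, a log2 ratio of 1.07 (0.73 to 1.42), and was within 2-fold after centring, at 0.93. AKR1C1 and AKR1C2, aldo-keto reductases and close paralogs, were at least 2-fold lower with 60 and 23 counts and with 54 and 22, at -1.19 and -1.10. With TPM, AKR1C1 was at -0.52. Both passed the minimum of 50 only in the vehicle library.

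**Figure D5:**
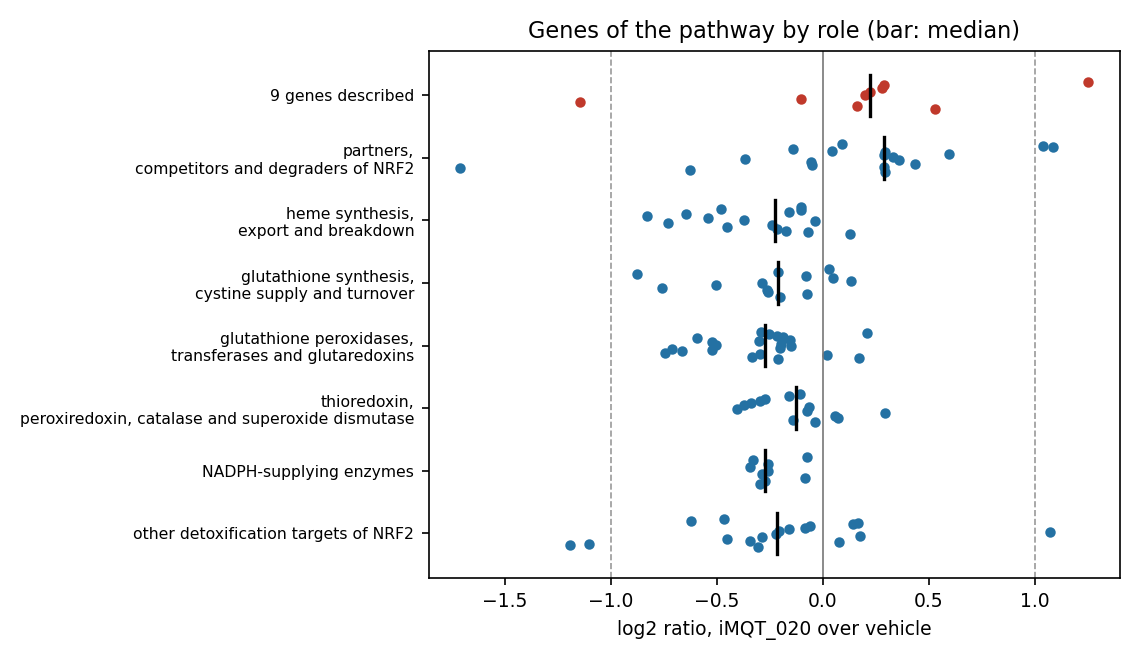
The log2 ratio (iMQT_020 over vehicle) of the 9 genes (red) and of the measured genes of each of 7 lists (blue), 1 point per gene, with a black bar at the median and dashed lines at 2-fold. The median is 0.22 for the 9 genes and 0.29 for NRF2's partners, competitors and degraders, and lies between -0.27 and -0.13 for the other 6 lists.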

How the data were processed

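RNA of 1 vehicle and 1 iMQT_020 library was sequenced. Per the labels' protocols, the reference was GRCh38 and reads were aligned by HISAT2 on the basis of Bowtie2. Per the submitters' processing notes, StringTie and edgeR were also used, in roles and versions not stated there. How reads were counted, and whether by strand, is not given in the sources used here. Overlapping and antisense genes may therefore share reads.

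For each gene the authors deposited an estimated count, a whole number, beside FPKM (scaled by the authors for transcript length and depth) and TPM (scaled by the authors to a sum of 1000000 in each library). The FPKM of 20787 genes also stood in another deposited table, with the same values. Each column of values was matched to its library by name, and 0 were left over.

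TMM scaling of counts was done in edgeR 4.0.16 (R 4.3.3), with factors of 0.998 (vehicle) and 1.00 (iMQT_020). The log2 ratio of CPM used a prior count of 0.5. Genes that reached 50 counts in either library counted as measured. With no replicates there was no test and no p-value, and a 2-fold rule was used. The counting intervals treat estimates as whole reads and can be too narrow. Ratios of 2 genes have exact conditional intervals. The log2 ratios of TPM in the report have 0.01 added. Centring subtracted the median of joint bins of GC content and length, 10 bins each, of GENCODE 44 canonical transcripts, for 93.6% of measured genes. Gene positions are those of RefSeq on GRCh38.p14. The calculations were tested on simulated data in Python 3.11.15.

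The 9 genes and the lists were chosen with earlier results of these data known. The naming rule took all 9 genes and, from each list, every gene at least 2-fold apart and otherwise the 3 with the largest ratios. A gene that the rule names is not reported here. Alternatives were scaling by median of ratios (DESeq2 1.42.0), total counts or upper quartile, a prior count of 5, minimum counts of 10, 200 or none, a 1.5-fold rule, an interval rule, FPKM and TPM, protein-coding genes, and totals without mitochondrial and rRNA genes.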

Additional observations from a re-analysis of the deposited data

How the results depend on the processing

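No paired analysis was possible because each treatment had 1 library, and none could be left out in turn. All 9 log2 ratios kept their sign under the 11 alternatives that change a ratio. Most of these could hardly change a sign. The scaling factors all lay from 0.992 to 1.01, and a larger added count only pulls a ratio toward 0. HMOX1 ran from -1.16 to -0.91 and NFE2L2 from 0.50 to 0.67. OSGIN1 ran from 0.40 to 1.55, GCLM from 0.03 to 0.26, KEAP1 from 0.15 to 0.34 and NQO1 from -0.11 to -0.05.

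Of the 9 genes, 2 were at least 2-fold apart, and 1 was with FPKM + 1, TPM + 1, a minimum of 200 counts, an interval wholly past 2-fold, or at least 50 counts in both libraries (chosen after the data were seen), where OSGIN1 was lost, and 1 after centring, where HMOX1 was lost. Of all 14805 measured genes 775 were 2-fold apart, against 137 with FPKM + 1 and 255 with TPM + 1. At 1.5-fold 2447 were apart, and 317 by the interval rule. Another minimum also changes how many genes are measured. With a minimum of 10 counts 2244 of 18626 genes were 2-fold apart, with 200 it was 333 of 12506. With no minimum it was 6259 of 24790, and with 50 counts in both libraries 408 of 14005. The higher and lower counts were 318 and 457, 1236 and 1008 with a minimum of 10, and 3503 and 2756 with none. NRF2's partners went from 3 genes to 1 with FPKM + 1 and 5 at 1.5-fold. Other detoxification targets went from 3 to 0 with FPKM + 1, TPM + 1 or the interval rule, and to 1 with a minimum of 200, of 50 on the mean count (chosen after the data were seen) or of 50 in both libraries. At 1.5-fold, heme genes went from 0 to 3 of 16, and glutathione synthesis genes from 0 to 2 of 13. Glutathione peroxidases and transferases went from 0 to 4 of 22, and to 1 of 24 with no minimum. Beside these stand 2447 of all 14805 measured genes at 1.5-fold, and 6259 of 24790 with no minimum. The cause of changes other than those of the added 1, the fold and the minimum was not tested. The 41 and 87 counts of OSGIN1 limit its ratio.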

Other observations

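Counts and TPM disagreed for a few genes of the wider pathway, chosen after their values were seen. Of 110 measured genes in the 7 lists, 7 had a gap between the log2 ratio of TPM and that of counts outside the central 95% of all measured genes. SOD2, the mitochondrial superoxide dismutase, had 12147 counts with vehicle and 9964 with iMQT_020, a log2 ratio of -0.11, but 62.7 and 91.2 TPM, a log2 ratio of 0.54. BACH2, a relative of BACH1, was at -0.05 by counts and 0.40 by TPM. TXNRD2, the mitochondrial thioredoxin reductase, was at 0.07 and 0.32. For these 3 genes the direction or size of the difference depends on the deposited measure, and none of the 9 genes described above was outside that range.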
